A study of Mus musculus with 6 samples.

Results

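This report describes 36 genes of nuclear receptors and their cofactors, 25 receptors and 11 coregulators, in liver RNA of wild type (WT) and Acss2-/- (Acss2-KO) mice. They were taken by symbol from a written list of both classes. The list sets no threshold on a measured value, but it was drawn up with earlier results of these data known. The deposited table listed 33 of the 36 among its 12366 genes, 23 receptors and 10 coregulators, and Nr2f1, Nr4a3 and Ncoa7 did not appear in it. Of the 33, 31 reached the mean of 5 CPM (reads of a gene scaled to a common library total) needed for testing, 21 receptors and 10 coregulators, and the receptor genes Nr4a2 and Rarb did not.

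The mice were C57BL/6 males on a chow diet, aged 22 weeks, and both genotypes had been fasted for 48 h before the liver was frozen. Each genotype had 3 libraries, so the groups were WT (n = 3) and Acss2-KO (n = 3), and all share strain, sex, age and fast. The sources used here do not say how the Acss2 allele was made. Nor do the labels say that each library came from its own mouse, so the p-values below rest on variation among libraries that may be technical.

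Nuclear receptors are transcription factors, many of them switched by small lipophilic ligands such as fatty acids, bile acids, retinoids, steroids and foreign chemicals. Many bind DNA as a heterodimer with a retinoid X receptor (RXR), at copies of a short half-site. Coactivators bind the receptor and recruit the transcription machinery, corepressors recruit deacetylases, and in liver these proteins set lipid, bile acid, glucose and drug metabolism during feeding and fasting.

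Estimated depth was between 21.8 and 30.8 M reads per library. Acss2, the targeted gene, was at 74.0, 81.0 and 73.5 CPM in WT and at 1.37, 3.56 and 2.35 CPM in Acss2-KO, as the labels say. All 13 hepatocyte markers examined were above 0 in every library. Of the 9355 genes tested, 3413 (36.5%) changed, 1252 higher (13.4%) and 2161 lower (23.1%) in Acss2-KO by limma at an adjusted p of 0.05, and the median log2 fold change was -0.12. With the libraries scaled by median of ratios, which moved that median to -0.01, 1690 were higher and 1765 lower.

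The receptors were mostly below WT and the coregulators mostly above it, by the sign of the log2 fold change in 15 of 21 and 8 of 10. The median of all tested genes was also below 0 (-0.12), so most of all tested genes had a negative sign too. The signs of Ncoa3, Ncor1, Ppard and Ppargc1a turned with 1 library left out. Among the 21 tested receptors, 6 fell and 1 rose, a share of 33.3% against 36.5% of all tested genes, with a median log2 fold change of -0.51. Of the 10 tested coregulators 2 rose (20%) and 8 did not pass, with a median of 0.36. By limma no coregulator passed as lower, also at an unadjusted p of 0.05. No tested member changed sign under the 4 other scalings of the libraries. The groups did not overlap for 7 members above and 9 below WT out of 31, against 52.9% of all tested genes. Pooled over direction, none of these shares exceeded that of all genes at this scaling. By direction, 28.6% of the receptors were lower and 4.76% higher, against 23.1% and 13.4% of all tested genes. Of the coregulators 20% were higher and 0% lower. Without overlap, 9 receptors lay below WT and 2 above it, and 5 coregulators lay above WT and 0 below it. Of all tested genes 32.8% lay below and 20.1% above. The lists were not tested as sets. Under median-of-ratios, upper-quartile, trimmed-mean and quantile scaling, 2 receptors were higher and 5 lower, and 5, 4, 5 and 5 coregulators were higher. These were 40 to 50% of the coregulators, against 17.3 to 19.1% of all tested genes called higher in the same fits. Of the receptors 9.52% were higher and 23.8% lower in these fits, where 17.4 to 19.4% of all tested genes were lower. Leaving out Acss2-KO replicate 2 gave 11 changed receptors (52.4%, against 42.7% of all tested genes), and leaving out Acss2-KO replicate 3 gave 4 (19%, against 18.4%). In whole liver, fewer cells of a type and less RNA per cell cannot be told apart.

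**Figure D1:**
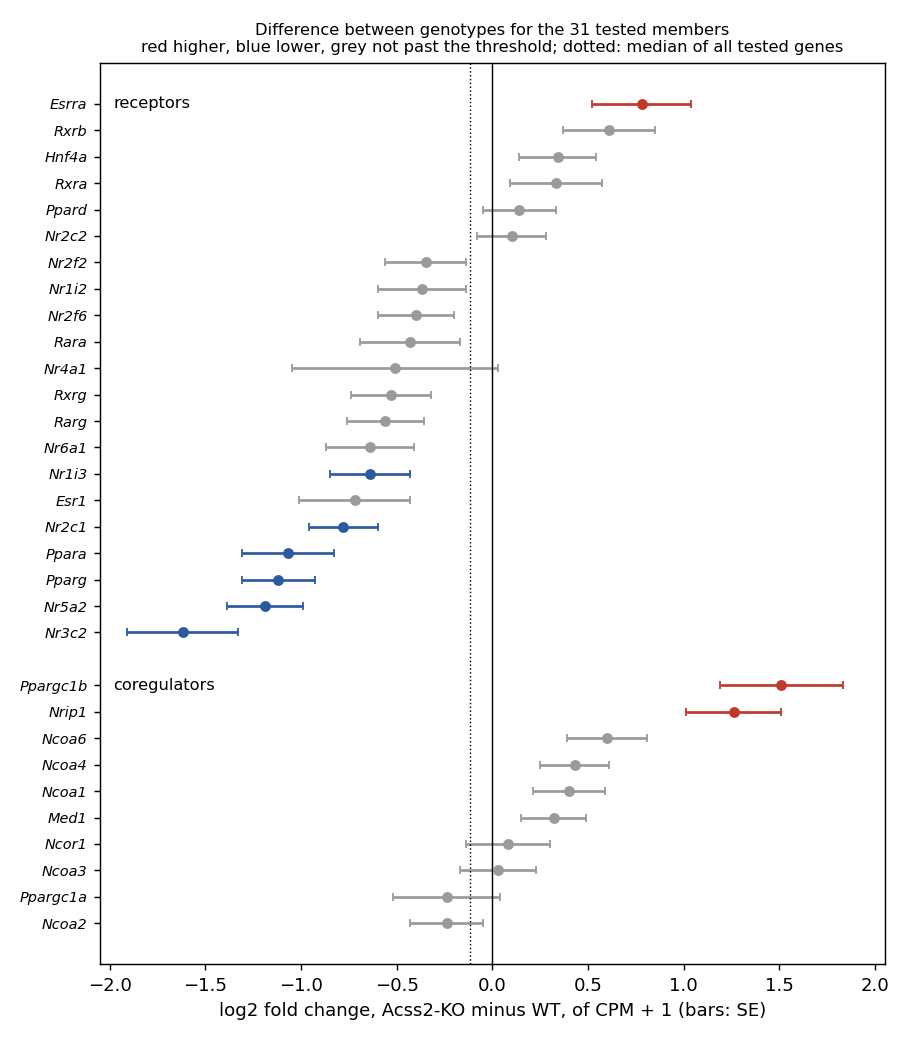
Log2 fold change of CPM + 1 (x axis, Acss2-KO minus WT) for each of the 31 tested members (y axis), with bars for the SE, red for higher, blue for lower and grey for not past the threshold. Values run from -1.62 for Nr3c2 to 1.51 for Ppargc1b, and 15 of the 21 receptors lie below 0 while 8 of the 10 coregulators lie above it. The dotted line marks the median of all tested genes at -0.12.

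Nr3c2, the mineralocorticoid receptor, which binds aldosterone and corticosterone, had the largest decrease of the members (ENSMUSG00000031618, chromosome 8, 76899442 to 77245012). It was at 15.5, 22.0 and 12.1 CPM in WT replicates 1 to 3 and at 2.97, 6.77 and 4.50 CPM in Acss2-KO replicates 1 to 3. The groups did not overlap, as for 32.8% of all tested genes in this direction, and Acss2-KO replicate 2 was the highest of its group. The level was 3.08-fold lower (log2 fold change -1.62, SE 0.29, limma adjusted p = 0.0041, lower in 3 of 3 libraries).

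Nr5a2, a receptor known as LRH-1 that binds DNA as a monomer and acts on genes of bile acid synthesis (ENSMUSG00000026398, chromosome 1, 136842571 to 136960448), was at 75.1, 67.6 and 53.4 CPM in WT and at 23.9, 35.0 and 25.6 CPM in Acss2-KO. Every Acss2-KO library was below every WT library, again with Acss2-KO replicate 2 nearest to WT. The decrease was 2.28-fold (log2 fold change -1.19, SE 0.20, limma adjusted p = 0.0037).

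Both lipid-sensing receptors PPARα and PPARγ had lower transcript levels. Ppara, the fatty acid sensor of the fasting liver (ENSMUSG00000022383, chromosome 15, 85734983 to 85802819), was at 251, 276 and 154 CPM in WT and at 104, 105 and 105 CPM in Acss2-KO. The WT libraries were spread widely and the Acss2-KO libraries hardly at all (227 ± 64.3 and 104 ± 0.418 CPM, SD, n = 3), without overlap. The difference was 2.10-fold (log2 fold change -1.07, SE 0.24, limma adjusted p = 0.0093). Pparg, which drives lipid storage genes (ENSMUSG00000000440, chromosome 6, 115360951 to 115490399), was at 18.3, 17.3 and 13.2 CPM in WT and at 5.90, 6.73 and 8.17 CPM in Acss2-KO, a 2.17-fold decrease (log2 fold change -1.12, SE 0.19, limma adjusted p = 0.0037). The third family member, Ppard, which is widely expressed, ranged from 6.54 to 9.25 CPM in WT and from 8.17 to 9.71 CPM in Acss2-KO and did not pass the test (log2 fold change 0.14, SE 0.19, adjusted p = 0.59). Its sign turned without WT replicate 3 (-0.01).

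The calls of Nr3c2, Nr5a2, Ppara and Pparg held under every alternative that could test them, with adjusted p no higher than 0.041. The other receptors that fell held less firmly. Nr2c1, the orphan receptor TR2 (ENSMUSG00000005897, chromosome 10, 94148023 to 94197211), was at 15.7, 16.4 and 12 CPM in WT and at 8.57, 8.40 and 7.26 CPM in Acss2-KO. It fell 1.72-fold (log2 fold change -0.78, SE 0.18, limma adjusted p = 0.011), a call lost without Acss2-KO replicate 3 (adjusted p = 0.056). Nr1i3, the constitutive androstane receptor (CAR), which drives drug-metabolising enzymes (ENSMUSG00000005677, chromosome 1, 171213970 to 171220701), was at 186, 112 and 127 CPM in WT and at 88.0, 90.5 and 86.2 CPM in Acss2-KO. The groups did not overlap, and the high value of WT replicate 1 set much of the WT mean (142 ± 39.1 CPM, SD, n = 3). Its decrease of 1.56-fold (log2 fold change -0.64, SE 0.21) passed narrowly (limma adjusted p = 0.042). Leaving out replicate 1 or 3 of WT raised adjusted p to 0.16 and 0.063, and leaving out replicate 1, 2 or 3 of Acss2-KO raised it to 0.085, 0.057 and 0.13, so that the call was lost. It was also lost under the 4 other scalings (adjusted p between 0.062 and 0.092).

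**Figure D2:**
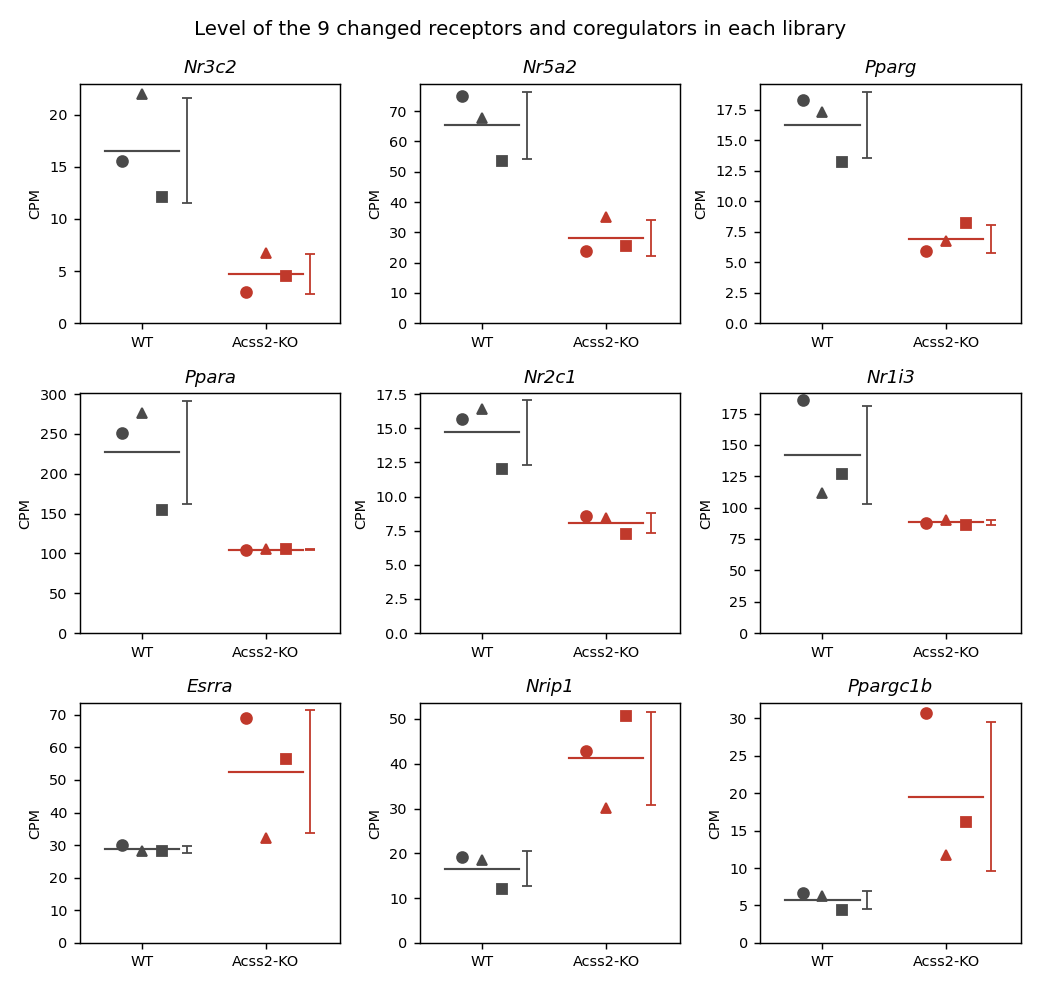
CPM (y axis, from 0, separate scale per gene) of the 9 changed members in each library, grey for WT and red for Acss2-KO, with circle, triangle and square for replicates 1, 2 and 3, a line at the mean and a bar for the SD (n = 3). The groups do not overlap in any of the 9 panels, and for Esrra Acss2-KO replicate 2 at 32.2 CPM lies close to the WT libraries at 28.1 to 29.9 CPM.

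Since receptors of this class bind copies of a half-site, the stretches before the start sites of Nr5a2 and Pparg that hold it are shown, the changed members with a match, with that of Esrra, a receptor that rose, beside them. The sequences are the 100 bases before the start site in RefSeq's GRCm38.p6, 5′ to 3′ on the gene's strand, and capitals mark the half-site AGGTCA. Nr5a2 and Pparg each have 1 further start site in RefSeq's table, not printed, whose 100 bases hold no AGGTCA. Nr3c2, Ppara, Nr2c1 and Nr1i3, which also fell, are not printed, and their windows described below hold no AGGTCA.
Nr5a2 (chr1:136960449-136960548, minus strand): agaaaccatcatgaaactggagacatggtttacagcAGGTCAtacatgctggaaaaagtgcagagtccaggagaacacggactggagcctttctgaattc
Pparg, one start site (chr6:115361044-115361143, plus strand): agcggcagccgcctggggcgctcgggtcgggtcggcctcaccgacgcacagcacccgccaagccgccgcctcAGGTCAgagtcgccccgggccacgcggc
Pparg, another start site (chr6:115362249-115362348, plus strand): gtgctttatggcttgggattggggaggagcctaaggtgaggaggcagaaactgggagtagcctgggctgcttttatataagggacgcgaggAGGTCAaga
Esrra (chr19:6921809-6921908, minus strand): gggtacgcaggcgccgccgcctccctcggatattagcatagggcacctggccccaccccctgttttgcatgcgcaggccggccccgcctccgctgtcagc

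Promoter windows of 300 bases were matched by symbol for 30 of the 33 members, and Ncoa2, Ncoa3 and Ppargc1b had no entry. AGGTCA, searched on both strands, was found in a window of 9 members (Ncoa4, Ncoa6, Nr5a2, Nr6a1, Pparg, Rara, Rarg, Rxra and Rxrg) and of 18.1% of 27025 genes. Genes with several start sites have several windows and more room for a match. Of the 9 members with a match, Nr5a2 and Pparg changed and the others did not pass the test. Whether the half-site bears on the level of these genes was not tested. The extended half-site TCAAGGTCA and the direct repeat DR1 (AGGTCA, any base, AGGTCA), both of which contain AGGTCA and were searched on both strands, were found in no member's window, and in windows of 0.466% and 0.0481% of genes. In the 250 bases before the start site, the median GC content was 63.4% for 23 receptors, 55.2% for 7 coregulators and 60.0% for 7098 tested genes, with a range over members from 38.4% (Ncoa6) to 85.6% (Ncoa1).

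One receptor rose. Esrra, the estrogen-related receptor α, which acts on genes of mitochondrial energy metabolism together with PGC-1 coactivators (ENSMUSG00000024955, chromosome 19, 6910977 to 6921813), was at 29.9, 28.1 and 28.2 CPM in WT and at 69.1, 32.2 and 56.5 CPM in Acss2-KO. The WT libraries were tight and Acss2-KO replicate 2 lay just above them. The increase was 1.72-fold (log2 fold change 0.78, SE 0.26, limma adjusted p = 0.043). Leaving out replicate 1, 2 or 3 of WT ended the call (adjusted p of 0.086, 0.096 and 0.11), as did leaving out replicate 1 or 3 of Acss2-KO (0.12 and 0.14). With replicate 2 of Acss2-KO left out, the log2 fold change was 1.10 (adjusted p = 0.0018).

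The retinoid X receptors, the shared heterodimer partners, did not pass the test. Rxra was at 526, 541 and 355 CPM in WT and at 714, 508 and 553 CPM in Acss2-KO (log2 fold change 0.33, SE 0.24, limma adjusted p = 0.30). Rxrb was at 41.1, 36.5 and 33.1 CPM in WT and at 68.1, 38.9 and 68.6 CPM in Acss2-KO. Its Acss2-KO replicates 1 and 3 were well above WT and replicate 2 overlapped it (log2 fold change 0.61, SE 0.24, adjusted p = 0.071). Rxrb passed under the 4 other scalings (adjusted p between 0.035 and 0.038) and without Acss2-KO replicate 2 (0.0051). Rxrg was between 7.06 and 7.94 CPM in WT and between 3.84 and 6.63 CPM in Acss2-KO, with no overlap (log2 fold change -0.53, SE 0.21, adjusted p = 0.078, and 0.013 without Acss2-KO replicate 2).

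The retinoic acid receptors did not pass either. Rara ranged from 18.3 to 30.7 CPM in WT and from 12.5 to 22.3 CPM in Acss2-KO (limma adjusted p = 0.21). Rarg was at 6.19 to 7.73 CPM in WT and 3.48 to 5.58 CPM in Acss2-KO without overlap (log2 fold change -0.56, SE 0.20, adjusted p = 0.057, and 0.037 without Acss2-KO replicate 1). Rarb, below the minimum for testing, was at 2.57 to 3.61 CPM and 2.50 to 4.53 CPM.

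Hnf4a, the master receptor of hepatocyte identity, was at 704, 666 and 560 CPM in WT and at 891, 744 and 803 CPM in Acss2-KO. Every Acss2-KO library was above every WT library, as for 20.1% of all tested genes, and the difference did not pass the test (log2 fold change 0.34, SE 0.20, limma adjusted p = 0.20). Nr1i2, the pregnane X receptor (PXR) of drug metabolism, was at 85.6 to 99.0 CPM in WT and at 50.2, 91.8 and 80.4 CPM in Acss2-KO (adjusted p = 0.24). Acss2-KO replicate 1 was the lowest library and Acss2-KO replicate 2 sat among the WT libraries.

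Esr1, the estrogen receptor α, was at 16.8, 22.6 and 16.2 CPM in WT and at 7.89, 17.9 and 8.69 CPM in Acss2-KO. Acss2-KO replicate 2 sat among the WT libraries (log2 fold change -0.72, SE 0.29, limma adjusted p = 0.080). Without that library adjusted p was 0.0035. Nr6a1, the orphan receptor GCNF, was lower in each Acss2-KO library (5.54 to 9.13 CPM against 9.19 to 15.0 CPM, adjusted p = 0.057). It passed with replicate 2 of either genotype left out (0.046 for WT, 0.023 for Acss2-KO). The COUP-TF group showed overlapping values: Nr2f6 at 41.9 to 50.6 and 27.5 to 43.7 CPM (adjusted p = 0.14, and 0.038 without Acss2-KO replicate 2) and Nr2f2 at 22.9 to 39.1 and 21.9 to 27.1 CPM (0.22, and 0.046 without WT replicate 3). Nr2c2, the orphan receptor TR4, was at 12.2 to 13.6 and 11.4 to 16.1 CPM (adjusted p = 0.68).

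Nr4a1, an immediate early receptor gene known as Nur77, varied more within the genotypes than between them. It was at 20.7, 6.23 and 15.2 CPM in WT and at 12.1, 3.89 and 12.6 CPM in Acss2-KO, with replicate 2 of each group lowest (log2 fold change -0.51, SE 0.54, limma adjusted p = 0.49). Of 15 other tested immediate early genes 6 rose and 1 fell (46.7% changed, against 36.5% of all tested genes). Myc rose from 13.1 ± 7.49 to 59.1 ± 29.3 CPM (SD, n = 3), while Egr1 was at 54.2 ± 12.3 and 53.0 ± 29.8 CPM (adjusted p = 0.76); both were chosen after their values were seen. Nr4a2, below the minimum for testing, was at 2.64 and 1.33 CPM in WT replicates 1 and 2 and at 1.01 CPM in Acss2-KO replicate 1, and it was listed at 0 in the other libraries.

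Among the coregulators, Ppargc1b and Nrip1 rose. Ppargc1b encodes PGC-1β, a coactivator of genes for mitochondria and lipid synthesis (ENSMUSG00000033871, chromosome 18, 61298136 to 61400431). It was at 6.68, 6.23 and 4.41 CPM in WT and at 30.7, 11.7 and 16.2 CPM in Acss2-KO, with no overlap and a wide spread in Acss2-KO. The increase was 2.85-fold (log2 fold change 1.51, SE 0.32, limma adjusted p = 0.0080). Nrip1 encodes RIP140, which binds ligand-loaded receptors and represses metabolic genes (ENSMUSG00000048490, chromosome 16, 76287400 to 76373827). It was at 19.2, 18.6 and 12 CPM in WT and at 42.8, 30.1 and 50.6 CPM in Acss2-KO, 2.39-fold higher (log2 fold change 1.26, SE 0.25, limma adjusted p = 0.0058). Both calls held under every alternative that could test them, with the highest adjusted p at 0.046 for Ppargc1b and 0.030 for Nrip1.

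Ppargc1a, the paralog PGC-1α and a classical fasting-induced coactivator, did not pass. It was at 18.5, 11.3 and 16.1 CPM in WT and at 17.6, 8.17 and 13.7 CPM in Acss2-KO, with replicate 2 of each group lowest (log2 fold change -0.24, SE 0.28, limma adjusted p = 0.53). With Acss2-KO replicate 2 left out the sign turned (0.05). The ratio of Ppargc1b to Ppargc1a within a library, which a single scaling factor per library cannot change, was 0.361, 0.551 and 0.274 in WT and 1.74, 1.43 and 1.18 in Acss2-KO. Its mean log2 difference was 1.92 (two-sided exact permutation p = 0.10, the smallest that 3 against 3 libraries allow, adjusted p = 0.14 over 7 ratios).

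Ncoa6, a coactivator that bridges receptors to histone methyltransferases (chromosome 2, 155390656 to 155473894), was at 37.3, 36.8 and 23.9 CPM in WT and at 54.2, 42.5 and 51.6 CPM in Acss2-KO. The groups did not overlap, and adjusted p was 0.05 after rounding and not under the threshold (log2 fold change 0.60, SE 0.21, limma). The gene lies 44.1 kb from Acss2 in the deposited coordinates, and whether the targeted locus bears on its level was not tested. Within 1000 kb of Acss2, 27 genes besides Acss2 itself were tested, Ncoa6 among them, and 4 were higher and 7 lower. Of all tested genes 13.4% were higher and 23.1% lower. Ncoa6 passed under the 4 other scalings (adjusted p between 0.020 and 0.022) and without Acss2-KO replicate 2 (0.034).

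Ncoa4, a receptor coactivator that also delivers ferritin to lysosomes, was at 170, 185 and 197 CPM in WT and at 236, 276 and 234 CPM in Acss2-KO, without overlap (log2 fold change 0.43, SE 0.18, limma adjusted p = 0.087). It passed under median-of-ratios, trimmed-mean and quantile scaling (0.044, 0.043 and 0.028). Of the p160 steroid receptor coactivators, Ncoa1 was at 17.3 to 26.2 CPM in WT and at 28.8 to 31.3 CPM in Acss2-KO (0.40, SE 0.19, adjusted p = 0.13, and 0.045 to 0.050 under the 4 other scalings). Ncoa2 was at 40.8 to 61.4 and 41.4 to 47.5 CPM (adjusted p = 0.34), and Ncoa3 at 22.9 to 36 and 28.1 to 34.3 CPM (0.91). The Ncoa3 value turned negative without WT replicate 3 or Acss2-KO replicate 1. Med1, the Mediator subunit that receptors contact, was at 26.9 to 32.9 and 32.0 to 43.7 CPM (adjusted p = 0.18). Ncor1, the corepressor that recruits the deacetylase HDAC3, was at 98.4 to 152 and 121 to 151 CPM (0.79).

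To set family members beside each other, CPM was divided by the merged exon length in GENCODE M1, since longer transcripts give more reads. The sources used here do not name the authors' annotation, so these shares are approximate. Ppara made up 83.3 to 87.0% of the summed PPAR level per length in WT and 81.5 to 85.1% in Acss2-KO. The Ppard share was 2.42 to 2.93% in WT and 5.54 to 6.38% in Acss2-KO, so it was larger in every Acss2-KO library. Rxra held 84.3 to 88.1% of the RXR level in WT and 83.2 to 87.4% in Acss2-KO. Rara held 63.6 to 69.3% of the RAR level in WT and 50.1 to 72.6% in Acss2-KO.

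The order of the paralogs differed between the genotypes in the PGC-1 pair. Ppargc1b made up 31.3 to 47.9% of that pair per length in WT and 66.3 to 74.4% in Acss2-KO. Among the p160 coactivators Ncoa1 moved from 28.2 to 30.7% in WT to 35.9 to 39.0% in Acss2-KO, and Ncoa2 from 34.1 to 35.1% to 26.3 to 30.7%. Nr2c1 made up 66.1 to 70.5% of the Nr2c pair in WT and 49.0 to 59.4% in Acss2-KO.

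**Figure D3:**
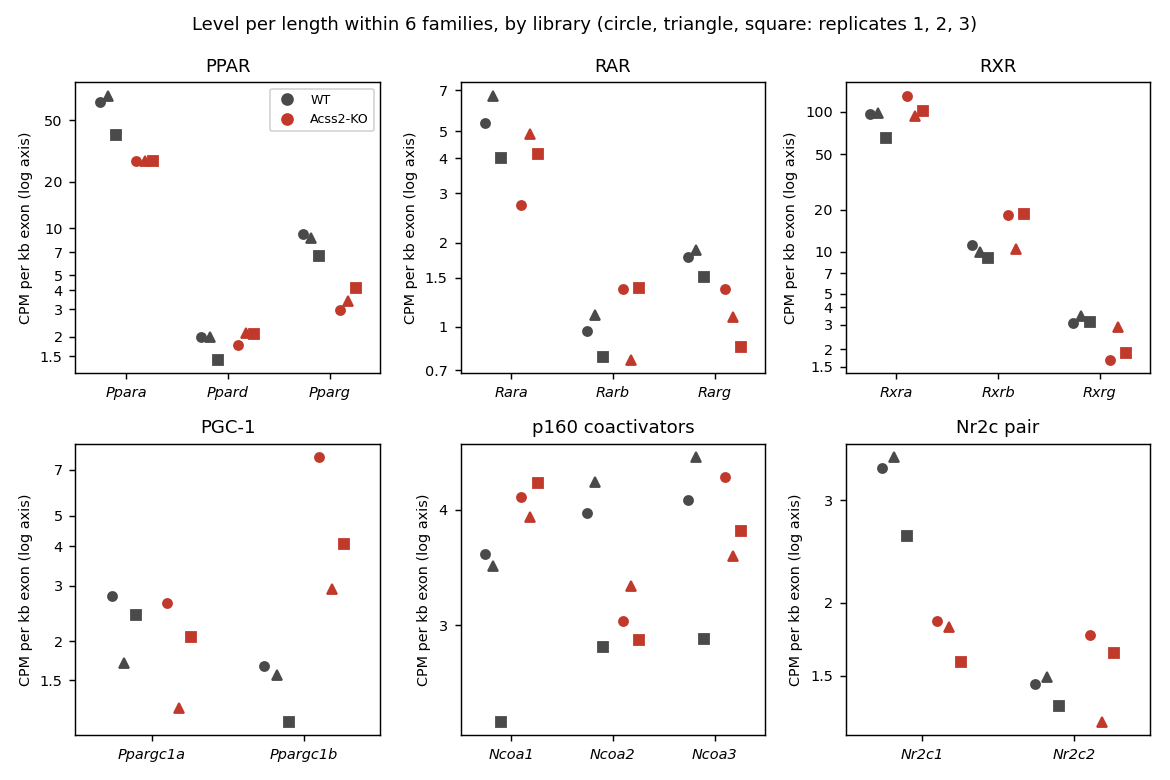
CPM per kb of merged exon (y axis, log scale, separate per panel) for the members of 6 families (x axis), grey for WT and red for Acss2-KO, 1 symbol per library. Ppara and Rxra stand above their paralogs in every library, and in the PGC-1 panel Ppargc1b is below Ppargc1a in the WT libraries and above it in the Acss2-KO libraries.

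Ratios within a library were taken for 7 pairs chosen with the values known. For Ppara to its partner Rxra the ratio was 0.476, 0.511 and 0.435 in WT and 0.146, 0.206 and 0.189 in Acss2-KO. For the corepressor gene Nrip1 to the coactivator gene Ncoa1 it was 0.693 to 0.732 in WT and 1.04 to 1.61 in Acss2-KO. These ratios and those of Ppard to Ppara and Nr2c1 to Nr2c2 did not overlap between the genotypes (exact permutation p = 0.10 each, adjusted p = 0.14). The ratios of Ppara to Pparg and of Rxrb to Rxra overlapped (exact permutation p = 0.50 and 0.40).

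Acss2-KO replicate 2 was the Acss2-KO library nearest to the WT mean for 21 of the 31 tested members (67.7%). The same library was nearest for 60.5% of all tested genes and for 78.0% of all changed genes. The members thus followed the spread of the whole table in this respect.

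Of 23 other nuclear receptor genes 13 were in the table and 12 were tested, of which 1 rose and 5 fell (median log2 fold change -0.17). These were 50% of the 12, against 36.5% of all tested genes. Nr0b2, the receptor SHP, which lacks a DNA-binding domain and represses bile acid synthesis, was at 62.3 ± 25.4 CPM in WT and 4.91 ± 2.93 CPM in Acss2-KO (SD, n = 3; log2 fold change -3.43, limma adjusted p = 0.0015). Nr1h4, the bile acid receptor FXR, went from 148 ± 17.2 to 78.8 ± 28.3 CPM, Nr1h3, the oxysterol receptor LXRα, from 108 ± 9.37 to 65.4 ± 8.0 CPM, and Thrb, a thyroid hormone receptor, from 32.2 ± 5.51 to 16.7 ± 6.94 CPM, all past the threshold. Nr3c1, the glucocorticoid receptor, was at 71.2 ± 1.74 and 72.8 ± 5.44 CPM (adjusted p = 0.90). Thra, Rora, Nr1h2, Nr1d2 and Nr1d1 did not pass either, with adjusted p between 0.10 and 0.85. Esrrg was below the minimum for testing, at 3.81 to 8.51 CPM in WT and listed at 0 or up to 1.79 CPM in Acss2-KO, without overlap. In the authors' deposited table its log2 fold change is -2.27 (adjusted p = 3.2e-07).

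Other coregulators moved both ways, 11 of 40 higher and 6 lower (42.5% changed, against 36.5% of all tested genes, median 0.09). Ube3a, a ubiquitin ligase and steroid receptor coactivator, fell from 37.4 ± 1.89 to 16.9 ± 1.10 CPM, and Bcl3 from 27.6 ± 6.60 to 11 ± 2.46 CPM. Pprc1, the third PGC-1 family coactivator gene, rose from 15.2 ± 4.51 to 54.1 ± 19.5 CPM (log2 fold change 1.73, SE 0.31, limma adjusted p = 0.0042). Of 27 other Mediator subunit genes 3 rose and 5 fell (29.6% changed, median 0.04). The kinase gene Cdk19 (-1.21) and Med11 (-1.06) were lower and Med7 (0.96) higher.

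Textbook target genes were counted beside their receptors, and target lists share members with each other. Their shares stand beside 36.5% of all tested genes changed, 13.4% higher and 23.1% lower. Of 32 PPAR targets 11 rose and 6 fell (53.1% changed, median log2 fold change 0.16). The lipid droplet genes Cidec (2.60) and Plin5 (1.79) rose and the fatty acid transporter gene Cd36 (-2.47) fell, while both Ppara and Pparg were lower. Of 26 CAR and PXR targets 6 rose and 11 fell (65.4% changed, median -0.88). The glucuronosyltransferase gene Ugt2b1 (-2.89) was lower and the stress gene Gadd45b (2.24) higher. Cyp2b9 was listed at 0 in each Acss2-KO library and was at 11.5 to 41.1 CPM in WT. Its paralog Cyp2b10, chosen after its values were seen, went the other way. It was at 1.65 ± 0.731 CPM in WT and 72.2 ± 44.8 CPM in Acss2-KO (SD, n = 3; log2 fold change 4.53, limma adjusted p = 0.0042).

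Of 36 HNF4A targets, a list that holds the member Nr1i2, 17 fell and 1 rose (50% changed, median -0.58). The Hnf4a level itself did not pass the test. The lower targets included the bile acid enzyme gene Cyp7a1 (-4.35), the lipase gene Lipc (-2.18) and the clotting factor gene F11 (-1.38). Of 17 genes of the NR5A2 and FXR axis 10 fell (58.8%, median -0.63), among them Cyp7a1, Nr0b2 and the sterol transporter gene Abcg5 (-1.25). By limma none of the 17 rose, also at an unadjusted p of 0.05. Of 16 retinoid genes 3 rose and 7 fell (62.5% changed, median -0.29). Lrat (-1.81), which stores retinol as esters, and the retinol carrier gene Ttr (-1.80) were lower. Cyp26b1 (2.0), which degrades retinoic acid, was higher. Of 29 ERR and PGC-1 targets 3 rose and 3 fell (20.7% changed, median -0.05). Pdk4 (4.87), which restrains pyruvate oxidation and is also on the list of PPAR targets, and the TCA cycle gene Idh3a (1.14) rose. The 3 genes that fell are not named here. Of 8 NR4A targets (37.5% changed) Fst (2.22) rose, and Nr0b2 and the glucose transporter gene Slc2a2 (-2.16) fell.

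**Figure D4:**
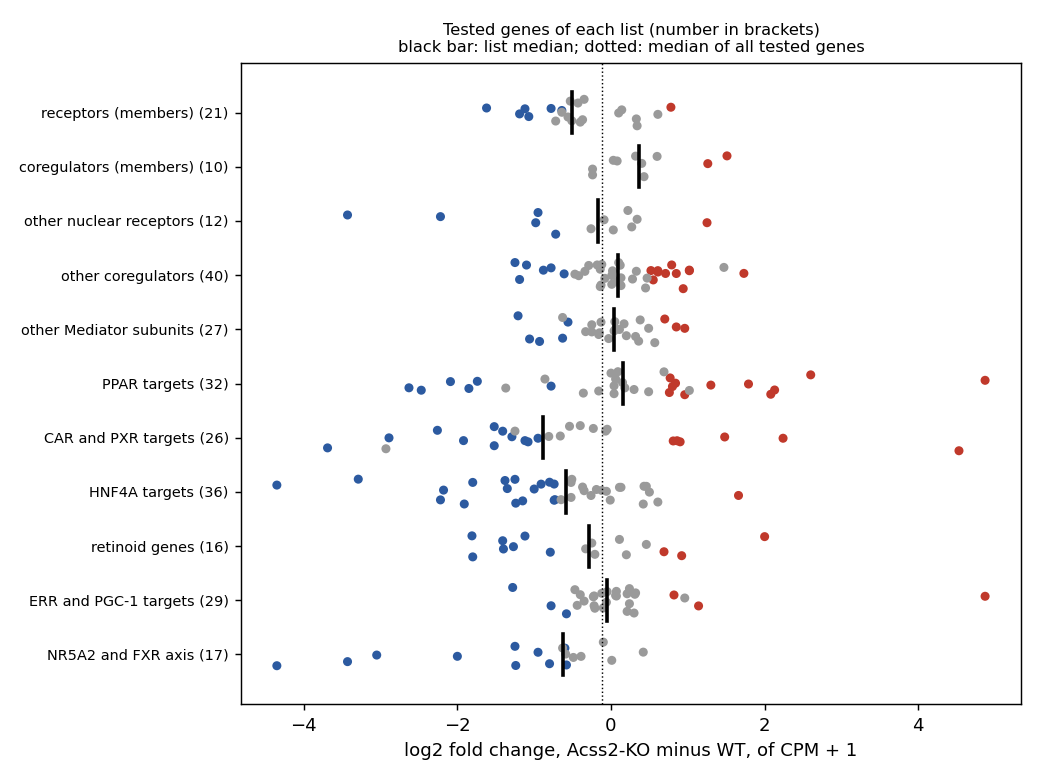
Log2 fold change of CPM + 1 (x axis, Acss2-KO minus WT) of each tested gene in 11 lists (y axis, number tested in brackets), red for higher, blue for lower, grey for not past the threshold, with a black bar at the list median. The list medians lie between -0.88 for CAR and PXR targets and 0.36 for the coregulators, and the dotted line marks the median of all tested genes at -0.12.

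Of the markers of other liver cells, the Kupffer cell and leukocyte sum and the erythroid sum were lower in Acss2-KO, and the other sums overlapped. The share changed was 46.2% for Kupffer cell and leukocyte, 28.6% for endothelial and 36.4% for stellate cell and fibroblast markers, against 36.5% of all tested genes. The summed level of 16 Kupffer cell and leukocyte markers was 330 to 994 CPM in WT and 168 to 260 CPM in Acss2-KO, with 6 of 13 tested markers lower, and S100a9 and Timd4 listed at 0 in at least 1 library. That of 5 erythroid markers was 162 to 280 and 41.2 to 67.0 CPM, with 5 of 5 lower. The sums of 14 endothelial markers (441 to 675 and 498 to 650 CPM), 13 stellate cell and fibroblast markers (318 to 486 and 260 to 433 CPM) and 4 cholangiocyte markers (168 to 180 and 139 to 205 CPM) overlapped, with 1 higher and 3 lower of 14 tested endothelial and 4 lower of 11 tested stellate markers. The hepatocyte sum was 104000 to 122000 CPM in WT and 125000 to 137000 CPM in Acss2-KO, with 2 of 13 markers higher (Cps1 and Tat) and 2 lower (Ttr and Serpina1c). Without Cps1, a urea cycle gene chosen after its values were seen, the sums overlapped (101000 to 120000 and 112000 to 125000 CPM). The part of these markers in the receptor and coregulator values was not tested.

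In the authors' deposited table, 27.2% of the listed genes have an adjusted p under 0.05. Among the members these are Ppargc1b (5.9e-06), Nr3c2 (0.00014), Nrip1 (0.00060), Pparg (0.017), Nr5a2 (0.018), Esrra (0.022) and Ppara (0.033) in the authors' deposited table, 7 genes that were also called here with the same sign. Nr2c1 and Nr1i3 have adjusted p-values of 0.15 and 0.29 in the authors' deposited table.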

How the data were processed

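The authors deposited 1 table with a column per library, in log2 CPM rounded to 2 decimals, with anything below 1 CPM set to 0. The unit was worked out here: the antilogs of a library sum to between 997061 and 997856. Library depth was taken from the spacing of low values, by which 5 CPM stood for 109 to 154 reads. The submitters' processing notes list Bowtie 0.12.2 and mm8 without saying what each was used for. Against RefSeq GRCm38.p6, the deposited start of a gene differed by a median of 8 bp over 11623 genes, and GRCm38 is therefore the build given with positions. The sources used here do not state the strand setting of the counting. The authors' table also holds their own log2 fold change, p-value and adjusted p-value for each gene, by a tool that the sources used here do not name.

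A listed 0 was entered as 1 CPM. After a filter that required 5 CPM on average, log2(CPM + 1) was fitted by limma 3.58.1 (R 4.3.3, statmod 1.5.0) with a robust fit and a trend, and p-values were adjusted by Benjamini and Hochberg's method over all 9355 genes. This scale understates the change of low genes. The procedure was tested on simulated data. All members are named, with up to 3 genes of smallest p from each other list. Results for some genes of these lists are not reported here. Members and lists were chosen with earlier results of these data known. Alternatives were 2 other pseudocounts, 4 scalings, no filter or 20 CPM, a plain limma fit, no pseudocount, each library left out, 2 libraries left out together, and the replicate number as a block.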

Additional observations from a re-analysis of the deposited data

How the results depend on the processing

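Nr3c2, Nr5a2, Ppara, Pparg, Nrip1 and Ppargc1b kept their call under each alternative that could test them, and Esrra, Nr1i3 and Nr2c1 did not. The total of changed genes was 1853 with a minimum of 20 CPM, where fewer genes were tested. It was 1717 to 3997 with 1 library left out (2203 and 2196 with replicates 1 and 2 of WT left out, 1717 with replicate 3 of Acss2-KO left out), and 1993 without WT replicate 2 and Acss2-KO replicate 1 together. Changed receptors numbered 4 at 20 CPM (36.4%, against 33.5% of all tested genes). With 1 library left out they numbered 4 to 11 (19 to 52.4%, against 18.4 to 42.7%). Changed coregulators numbered 1 at 20 CPM (12.5%) and 2 to 3 with 1 library left out (20 to 30%). They numbered 5 with median-of-ratios, trimmed-mean or quantile scaling (50%) and 4 with upper-quartile scaling (40%). Under these 4 scalings 36.5 to 36.9% of all tested genes changed. Of the values not past the threshold, 4 turned sign with 1 library left out: Ncoa3 ran from -0.15 (WT replicate 3 left out, with -0.05 when replicate 1 of Acss2-KO was) to 0.16, Ncor1 from -0.12 (without WT replicate 3) to 0.19, Ppard from -0.01 (without WT replicate 3) to 0.21, and Ppargc1a from -0.46 to 0.05 (without Acss2-KO replicate 2). The cause was not tested.

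Deviations of same-numbered libraries from their group means had r of -0.10, -0.14 and 0.09 across genes, and differently numbered ones -0.15 to 0.18. With 3 libraries a group, these values cannot decide whether the numbers pair the libraries. With the replicate block, 3397 genes (36.3%), 8 receptors (38.1%) and 3 coregulators (30%) changed, Esr1 (adjusted p = 0.020) and Ncoa6 (0.047) being added. Members near 5 CPM rest on about 109 to 154 reads per library, and 3 libraries a group cannot go below p = 0.10 in an exact test.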
